A study of Homo sapiens with 16 samples.

Results

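Open chromatin was compared between SOX2-EGFP-positive neural progenitors sorted at day 60 and at day 40 of brain organoid culture. The members were the 4 ATAC-seq libraries of these groups, 2 per day, of 16 libraries in the series, and they were chosen by population and day alone. ATAC-seq uses the transposase Tn5 to cut and tag accessible DNA, so that a peak marks a stretch of open chromatin. The cells of both groups were derived from the human embryonic stem cell line H9, an established line whose genotype label is wild type. Both carried the same pair of reporters. EGFP followed SOX2 through a P2A peptide on one allele, and dTomato under the human SYN1 promoter sat at AAVS1. The organoids were enriched in dorsal telencephalon, from which the cerebral cortex develops. EGFP marks any cell that makes SOX2, so the sort collects neuroepithelial cells, radial glia and other SOX2-positive cells together. Whether the reporter line was a single clone is not stated in the labels. Nor do they state that the 2 libraries of a day are separate cultures, so p-values measure only the spread between these samples, which may be technical.

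Cortical progenitors change with time. Early neuroepithelial cells become radial glia, which first make deep-layer neurons, later make upper-layer neurons and finally make glia. At the medial edge of the early cortex the cortical hem secretes WNT and BMP ligands that pattern the hippocampus, and the neighbouring choroid plexus epithelium arises from the same edge. Open regions far from promoters include enhancers, and sets of them are opened and closed as progenitors move through these states.

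The amount called was similar on both days, but the peaks of 1 day 60 list were narrower. The day 60 lists held 111485 and 127772 peaks and the day 40 lists 98690 and 107501. The day 60 peaks covered 87.2 and 77.6 Mb, against 77.8 and 82.8 Mb for day 40, a difference in means of 2.1 Mb (exact permutation test, two-sided, p = 1, where the smallest p this design allows is 0.333). The second day 60 list stood apart, with a median peak width of 469 bases against 632 in the first day 60 list and 634 and 636 in the day 40 lists. The Jaccard index, the shared share of covered bases, was 0.559 within day 60 and 0.612 within day 40. It lay between 0.466 and 0.537 for the 4 pairs across the days. The lists hold no read numbers, so depth is unknown and no counting interval can be given.

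Progenitors of day 60 and of day 40 each had many open regions that were not listed on the other day. Merging the 4 lists gave 174087 regions. The 4 libraries shared 65726 of them, and 59439 were found in exactly 1 library. A peak in both day 60 libraries and in neither of day 40 was found in 13597 regions (7.81%). The opposite pattern, a peak in both day 40 libraries and in neither of day 60, was found in 9156 regions (5.26%). These are called day 60-only and day 40-only regions here. The day 60-only regions covered 8.04 Mb with a median width of 509 bases, and the day 40-only regions 6.09 Mb with 588 bases. The median width of the regions open in all 4 was 1106 bases. Where each of the 4 lists was trimmed to 77.6 Mb, by the rank of its peaks, there were 10871 day 60-only and 9365 day 40-only regions. Single regions were not tested. In sorted bulk cells, fewer cells of a type and less accessible chromatin per cell cannot be told apart.

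Few gene starts changed their state. Windows of 1 kb either side of a start were available for 15812 protein-coding genes. Of these, 10875 were open in all 4 libraries and 3707 in none. Only 120 starts (0.759%) were day 60-only and 80 (0.506%) day 40-only. Ends without a given orientation, for the 8324 other windows, were day 60-only in 134 cases (1.61%) and day 40-only in 57 (0.685%). Among the listed genes the day 60-only starts were those of NEUROD2, APOE, CX3CR1, DPPA4 and CA9. NEUROD2 encodes a proneural bHLH factor of cortical excitatory neurons and APOE a lipid carrier made by astroglia. The day 40-only starts were those of WNT8B and RSPO1, both in the list of cortical hem signals. WNT8B encodes a WNT ligand of the medial cortical edge and RSPO1 a secreted enhancer of WNT signalling. Ends of GFAP, SP9, IRX3 and FOLR1 were day 60-only, and ends of WNT7B and CDH1 were day 40-only. Over both kinds of window, 254 (1.05%) were day 60-only and 137 (0.568%) day 40-only. The balance depends on the window and on the length of the lists. With windows of 200 bases there were 137 day 60-only and 164 day 40-only gene ends, and with lists of equal length 175 day 60-only and 150 day 40-only ends. Outside the lists, chosen after their values were seen, the day 60-only starts included SLC12A5, which encodes the neuronal chloride exporter KCC2. The day 40-only starts included BMP5, which encodes a BMP ligand.

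The promoters of 4 of these genes are shown because their starts were listed on one day and not on the other. Each runs 5′ to 3′ on the gene's strand from 250 bases before to 50 bases after the start, from RefSeq, build GRCh38.p14. Capitals mark the bases covered by peaks in both libraries of the day named. NEUROD2 (chr17:39607871-39608170, minus strand) and SLC12A5 (chr20:46021436-46021735, plus strand) are marked for day 60. WNT8B (chr10:100462759-100463058, plus strand) and BMP5 (chr6:55875541-55875840, minus strand) are marked for day 40.
NEUROD2 promoter: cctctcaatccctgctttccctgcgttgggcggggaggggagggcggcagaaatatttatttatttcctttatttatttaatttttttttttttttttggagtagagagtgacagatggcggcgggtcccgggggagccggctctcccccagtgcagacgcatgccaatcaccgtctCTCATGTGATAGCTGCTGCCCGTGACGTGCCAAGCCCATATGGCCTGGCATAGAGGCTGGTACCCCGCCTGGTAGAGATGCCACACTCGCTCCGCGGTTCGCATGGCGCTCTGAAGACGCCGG
SLC12A5 promoter: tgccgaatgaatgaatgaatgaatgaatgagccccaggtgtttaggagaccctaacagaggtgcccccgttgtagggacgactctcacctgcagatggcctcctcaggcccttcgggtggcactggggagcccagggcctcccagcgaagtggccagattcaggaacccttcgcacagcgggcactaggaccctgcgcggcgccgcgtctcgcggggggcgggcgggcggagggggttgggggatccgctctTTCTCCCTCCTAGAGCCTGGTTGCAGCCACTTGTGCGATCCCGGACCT
WNT8B promoter: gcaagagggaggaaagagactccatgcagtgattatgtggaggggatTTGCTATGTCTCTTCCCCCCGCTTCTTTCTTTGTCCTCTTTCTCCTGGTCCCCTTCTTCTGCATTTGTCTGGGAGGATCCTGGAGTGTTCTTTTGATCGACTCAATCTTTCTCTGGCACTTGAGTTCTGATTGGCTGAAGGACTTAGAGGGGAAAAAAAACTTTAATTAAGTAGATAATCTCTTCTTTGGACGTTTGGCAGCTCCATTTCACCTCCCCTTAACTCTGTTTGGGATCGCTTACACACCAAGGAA
BMP5 promoter: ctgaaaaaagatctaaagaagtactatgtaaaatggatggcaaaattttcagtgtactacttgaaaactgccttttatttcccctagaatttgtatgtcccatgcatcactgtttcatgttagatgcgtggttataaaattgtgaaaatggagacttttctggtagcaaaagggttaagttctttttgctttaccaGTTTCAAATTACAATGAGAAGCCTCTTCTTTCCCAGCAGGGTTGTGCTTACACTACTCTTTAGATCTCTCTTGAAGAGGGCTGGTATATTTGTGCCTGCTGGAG

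The peaks over these promoters differed in how long they lasted. At NEUROD2 the peaks of both day 60 libraries covered 123 of the 300 bases, with folds of 2.74 and 2.40, and both day 90 progenitor libraries also had a peak there. In neurons, 7 of the 8 libraries had one. At SLC12A5 they covered 48 bases, with folds of 2.79 and 3.03, and 1 of the 4 later progenitor libraries and 4 of the 8 neuron libraries also had a peak. At WNT8B the peaks of both day 40 libraries covered 253 bases, with folds of 3.28 and 2.58, and no later progenitor library and no neuron library had a peak in these bases. At BMP5 they covered 104 bases, with folds of 2.71 and 3.25, and again none of the 12 other libraries had a peak in them. The folds at NEUROD2 and SLC12A5 lay below the median peak folds of the day 60 lists, 4.06 and 3.45. The median folds of the day 40 lists were 3.22 and 3.18. WNT8B lay just above the median in the first of them and below it in the second, and BMP5 below it in the first and just above it in the second.

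Promoters whose peak came or went were less rich in CpG than those open on both days. The median was 7 CpG in day 60-only starts and 8.50 in day 40-only starts, against 26 in the starts open in all 4 libraries and 4 in those open in none. The median GC content was 58.7% in day 60-only and 58.2% in day 40-only starts, against 65.3% in those open in all 4 libraries and 51.0% in those open in none. Short motifs were counted on both strands in the 300 bases. The E-box CAGATG, which proneural bHLH factors bind, was in 20.8% of day 60-only and 17.5% of day 40-only promoters, against 11.7% of all promoters. The E-box CAGCTG, its own reverse complement, was in 29.2% of day 60-only and 17.5% of day 40-only promoters, against 17.6% of all. The SOX core CTTTGT was in 18.3% of day 60-only and 27.5% of day 40-only promoters, against 12.95% of all. The TCF core CTTTGA was in 14.2% of day 60-only and 10% of day 40-only promoters, against 11.0% of all. The homeodomain core TAATTA was in 6 day 60-only (5%) and 7 day 40-only (8.75%) promoters, against 3.36% of all. The GC box GGGCGG was in 43.3% of day 60-only and 45.0% of day 40-only promoters, against 58.3% of all. CTTTGT and CTTTGA differ only in their last letter, and matches of different motifs were counted separately, also where they overlap. Promoters open in no library held CAGATG in 18.3%, CAGCTG in 19.1%, CTTTGT in 19.2%, CTTTGA in 17.9%, TAATTA in 6.77% and GGGCGG in 25.7%. In the printed promoters, CAGATG starts at base 113 of NEUROD2 and at base 92 of SLC12A5, in both outside the capitals. In WNT8B, CTTTGT starts at base 76 and TAATTA at base 211, both inside the capitals. A match is a description of the letters only.

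The day 60-only regions were mostly still open in day 90 progenitors, and the day 40-only regions mostly were not. None of the 12 other libraries was used to choose the regions, so they are an independent readout, given as a description. Of the day 60-only regions, 72.9% had a peak in both day 90 progenitor libraries, against 7.70% of the day 40-only regions. Both classes are part of the 30486 regions with a peak in exactly 2 of the 4 libraries, among which the share was 42.8%. Over all regions it was 53.9%, and among those in exactly 1 of the 4 libraries it was 15.2%. The first day 120 progenitor library held 58.0% of the day 60-only and 14.8% of the day 40-only regions. The second, whose list covered only 36.9 Mb, held 31.1% of the day 60-only and 4.04% of the day 40-only regions. Both day 120 libraries held 29.3% of the day 60-only and 3.06% of the day 40-only regions, against 30.0% of all regions. All 4 later progenitor libraries held 28.3% of the day 60-only and 1.07% of the day 40-only regions, against 28.9% of all regions. Among regions with a peak in exactly 2 of the 4 libraries these shares were 16.4% and 14.7%. No other library of the series held 5.88% of the day 60-only and 46.5% of the day 40-only regions. This was so for 21.9% of all regions, 21.6% of those in exactly 2 of the 4 libraries and 48.9% of those in exactly 1. The shares depend on both libraries of a day. When the first day 60 library was left out, the share of day 60-only regions in both day 90 lists was 32.8%, and that of day 40-only regions 20.3%. Without the second day 60 library the share was 57.9% for day 60-only and 12.9% for day 40-only regions.

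**Figure D1:**
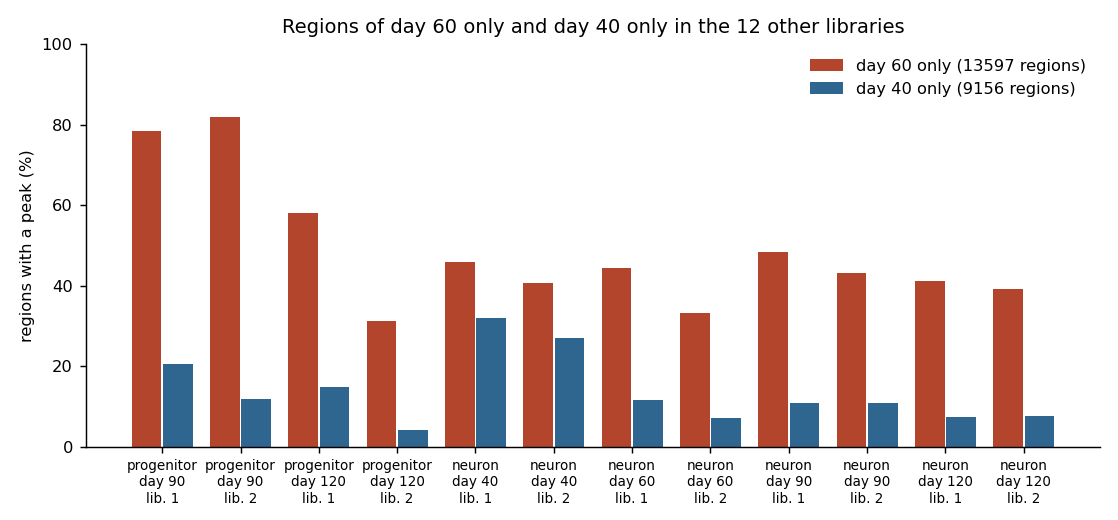
Share of day 60-only regions (left bars, red) and day 40-only regions (right bars, blue) that had a peak in each of the 12 other libraries, as a percentage on the vertical axis. The first day 90 progenitor library held 78.3% of the day 60-only and 20.4% of the day 40-only regions, and in all 12 libraries the day 60-only share was the higher.

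Sorted neurons of the same series shared part of both sets. Both day 60 neuron libraries had a peak in 29.7% of the day 60-only and in 5.01% of the day 40-only progenitor regions. The share was 28.7% over all regions and 18.0% over those with a peak in exactly 2 of the 4 progenitor libraries. Both day 40 neuron libraries had one in 34.7% of the day 60-only and 22.5% of the day 40-only regions. Here the share was 42.5% over all regions and 30.0% over those in exactly 2 of the 4. Thus 4722 day 60-only progenitor regions were already listed in both neuron libraries of day 40. A smaller set was listed in progenitors and in no neuron library: 706 day 60-only regions and 18 day 40-only regions were listed in all 4 later progenitor libraries and in none of the 8 neuron libraries. Of all 174087 regions, 3954 had this pattern.

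Both sets lay mostly away from gene ends, and the day 40-only regions lay farther out. Inside a protein-coding gene were 55.2% of the day 60-only and 45.3% of the day 40-only regions, against 60.0% of those open in all 4 libraries. The share was 51.5% for regions in exactly 2 of the 4 libraries and 55.2% over all regions. Within 1 kb of an annotated gene end were 3.66% of the day 60-only and 2.29% of the day 40-only regions, against 20.5% for all 4. Regions in exactly 2 of the 4 libraries had 3.64%, those in exactly 1 had 3.83% and all regions 10.1%. The median distance to the nearest gene end was 41.4 kb for day 60-only regions and 75.7 kb for day 40-only regions. It was 48.9 kb for those in exactly 2 and 35.5 kb over all regions. More than 100 kb away were 29.6% of the day 60-only and 43.5% of the day 40-only regions, against 33.6% of those in exactly 2 and 28.3% of all.

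The balance between the sets differed among chromosomes. On chromosome 22 there were 321 day 60-only and 52 day 40-only regions, a ratio of 6.17. On chromosome 19 there were 280 day 60-only and 60 day 40-only regions, and on chromosome 17 there were 566 day 60-only and 192 day 40-only regions. Chromosome 4 was the only one with fewer day 60-only regions, 596 against 802 day 40-only regions. Chromosome 13 had 374 day 60-only and 361 day 40-only regions. The share of covered bases on chromosome 22 was 1.87% and 1.9% in the day 60 lists and 1.58% and 1.48% in the day 40 lists. Chromosomes 22, 19 and 17 are known as gene-dense and chromosomes 4 and 13 as gene-poor. The part of base composition or of library quality in this gradient was not tested.

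**Figure D2:**
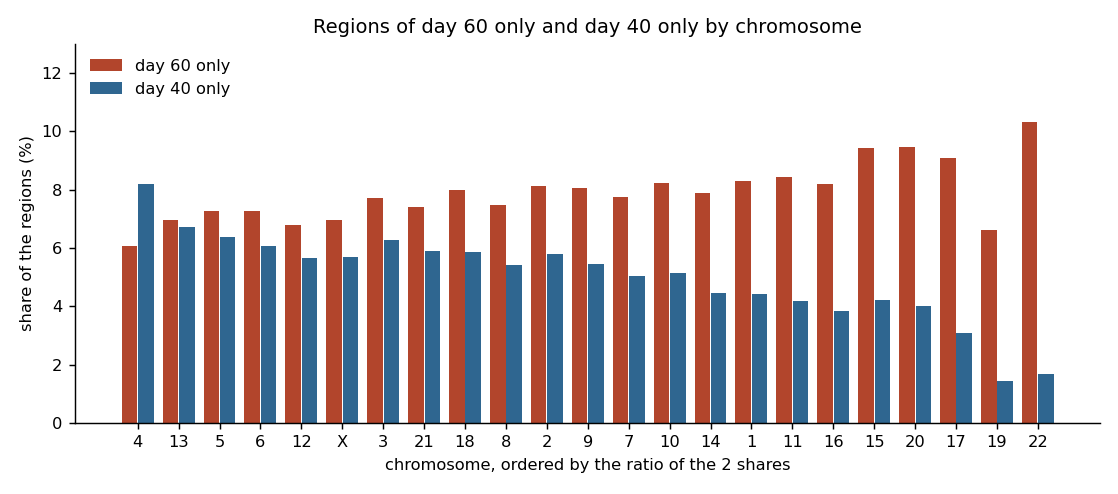
Share of all merged regions on each chromosome that were day 60-only (left bars, red) or day 40-only (right bars, blue), in percent, with chromosomes ordered by the ratio of the 2 shares. Chromosome 4 stands at the left with 6.08% day 60-only and 8.18% day 40-only regions, and chromosome 22 at the right with 10.3% and 1.67%.

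The strongest day 60-only regions persisted. Strength was ranked by the authors' own fold enrichment, using the worse of the ranks in the 2 lists. The first of them was chr14:57889185-57889604 (hg38), inside SLC35F4, with a fold of 10.1 in both day 60 lists. It was followed by chrX:31811067-31811469 inside DMD, the dystrophin gene, with folds of 8.29 and 10.5. The other regions in the top 5 lay outside genes on chromosome 4, at chr4:157509227-157509751, chr4:17196894-17197529 and chr4:124936459-124937005. Each of the 5 was listed in every one of the 4 later progenitor libraries. Among the genes of the fixed lists, the strongest was chr7:137282951-137283884 inside PTN, with folds of 7.09 and 7.14. PTN encodes pleiotrophin, a secreted growth factor that marks outer radial glia, and chr7:137296474-137297074 in the same gene had folds of 5.71 and 7.47. HSPG2, which encodes the matrix proteoglycan perlecan, held chr1:21869717-21870280 with folds of 7.04 and 8.03. GAD1, a GABA synthesis enzyme gene, held chr2:170846313-170846833 with folds of 7.90 and 6.44. Within 20 kb of SNCB, the beta-synuclein gene, chr5:176613891-176614146 had folds of 6.50 and 6.06. NOTCH2, a Notch receptor gene, held chr1:119941387-119941799 with folds of 8.96 and 5.95. The regions at PTN, HSPG2, GAD1 and NOTCH2 were listed in all 4 later progenitor libraries and that at SNCB in 3, but they differed in neurons. The NOTCH2 region was listed in 0 of the 8 neuron libraries, those of PTN and HSPG2 in 1 or 2, that of SNCB in 6 and that of GAD1 in 7. The regions at CENPF and RBPJ, weaker in rank, were listed in 8 neuron libraries and that at STMN2 in 4.

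The strongest day 40-only regions were mostly gone later. The first was chr17:61742174-61742692 inside BRIP1, a DNA repair helicase gene, with folds of 6.46 and 6.50, and no other library held it. The second was chr5:102741914-102742688, 12095 bases from PAM, and 2 neuron libraries held it. The next, chr2:169865252-169866103 inside UBR3, was an exception and was listed in 3 later progenitor libraries. The fourth, chr6:60365474-60366354, was listed in 1 later progenitor and 1 neuron library, and the fifth, chr4:171915130-171915781 inside GALNTL6, in no other library. At the listed genes, chr22:32789001-32789673 inside SYN3, a synapsin gene, had folds of 5.13 in both day 40 lists. The region chr12:13569648-13570601 inside GRIN2B, an NMDA receptor subunit gene, had folds of 5.86 and 4.75. Neither was listed in any other library.

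Over whole gene loci, CPLX1, CPLX2, SEMA5B and LAMB3 were among those with more covered bases at day 60. PRTG, RSPO2, BMP5, LAMB1 and SLIT2 were among those with fewer. A locus was the gene with 20 kb on either side, and its coverage was the number of bases inside peaks. It was set to log2 of the bases plus 500, minus log2 of the covered bases of the whole list, and fitted with limma across all 16 libraries and 18755 genes. Adjusted p is the Benjamini-Hochberg value over all of them, and ± is the SE of a log2 difference, day 60 minus day 40. Coverage was higher at day 60 at 44 loci (0.235%) and lower at 19 (0.101%), while the median difference over all loci was 0.02. The 63 calls rest on the spread shared by the 16 libraries. Fitted on the 4 progenitor libraries alone, no locus passed, although 2775 had an unadjusted p under 0.05. With lists of equal length 199 loci were higher and 123 lower, of which 7 and 2 were among the 44 higher and 19 lower loci. For loci all 16 lists were trimmed to 36.9 Mb, the length of the shortest, where regions used 77.6 Mb. Without scaling 1 was higher and 1 lower, which puts the share of higher calls at 50% in place of 69.8%. Leaving out the first or the second day 60 library left 4 higher and 3 lower or 6 higher and 7 lower loci. Leaving out the first or the second day 40 library left 1 higher and 0 lower or 11 higher and 1 lower. With lists of equal length 35 of the 44 higher and 16 of the 19 lower loci kept their direction, and with 5 kb flanks 40 of the 44 and all 19. The other settings turned none of them, though no scaling and centring on the median gene move all loci alike. Single loci were not equally firm. Of 14 alternative settings, CPLX1 passed the threshold in 2, CCNE1, BMP5 and LAMB1 in 3 and CPLX2 in 6. RSPO2 passed in 8, LAMB3 in 9, TG in 10 and PRTG in 11. Each of the 63 had groups that did not overlap. Over all loci tested, 24.5% were higher in both day 60 libraries than in both of day 40, and 19.7% were lower.

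Both complexin genes of the synaptic vesicle list were among the loci that rose. CPLX2, which encodes a complexin that controls synaptic vesicle fusion, had 15.1 and 8.88 kb at day 60 against 5.17 and 6.56 kb at day 40. Both day 60 libraries lay above both of day 40, and the log2 difference was 0.90 ± 0.20 (limma, adjusted p = 0.0362). CPLX1, the other complexin gene of that list, had 8.26 and 7.04 kb at day 60 against 3.20 and 3.61 kb at day 40, a log2 difference of 1.02 ± 0.22 (adjusted p = 0.0346). The CPLX2 locus held 6 day 60-only regions and no day 40-only region, and the CPLX1 locus held 2 day 60-only regions and 1 day 40-only region. SEMA5B, a semaphorin gene, had 18.7 and 17.2 kb at day 60 against 7.76 and 9.92 kb at day 40 (log2 difference 0.95, adjusted p = 0.00935), with 7 day 60-only regions and no day 40-only region. The plexin receptor gene PLXNA4 had 34.7 and 33.7 kb at day 60 against 16.9 and 21.5 kb at day 40, with 13 day 60-only regions and no day 40-only region. The netrin receptor gene UNC5B had 12.3 and 10.6 kb at day 60 against 5.91 and 5.68 kb at day 40. SEMA5B, PLXNA4 and UNC5B were named after their values were seen.

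SYNJ2, TG, LAMB3 and CCNE1 also rose. SYNJ2, a phosphoinositide phosphatase gene, had 7.38 and 10.2 kb at day 60 against 3.72 and 2 kb at day 40 (log2 difference 1.46 ± 0.23, adjusted p = 0.00356). TG, the thyroglobulin gene on chromosome 8, had 11.6 and 9.54 kb at day 60 against 2.74 and 4.55 kb at day 40, and shares its window with SLA. LAMB3, a laminin chain gene, had 5.24 and 5.18 kb at day 60 against 1.3 and 2.05 kb at day 40 (log2 difference 1.38 ± 0.24, adjusted p = 0.00935), and held 4 day 60-only regions. CCNE1, the gene of the G1/S cyclin E1, had 2.62 and 2.59 kb at day 60 against 0.654 and 0.619 kb at day 40 (log2 difference 1.41 ± 0.28, adjusted p = 0.0229). At each of these loci both day 60 libraries lay above both of day 40. The largest log2 difference under the naming rule was at LSP1, a leukocyte actin-binding protein gene, with 1.51 and 4.81 kb at day 60 against 0.357 and 0.277 kb at day 40. It was followed by CBS, CELA2A, PROM2, GRXCR1, SYNJ2, SPDEF, CETP, LCP2, TG, LAMB3 and FBLN5, with log2 differences of 1.94 to 1.35. CBS, with 3.23 and 2.85 kb at day 60 against 0.451 and 0.354 kb at day 40, is uncertain, because a near-identical copy of the gene, also on chromosome 21, can share its reads. With 5 kb flanks PROM2 had a log2 difference of -0.28, and with lists of equal length CCNE1 had one of -0.85.

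PRTG, RSPO2 and BMP5 were among the loci that fell. PRTG, which encodes protogenin, an immunoglobulin superfamily receptor of the early neural tube, had 3.81 and 3.14 kb at day 60 against 12.4 and 10.3 kb at day 40. Both day 60 libraries were far below both of day 40, and the log2 difference was -1.61 ± 0.25 (adjusted p = 0.00356 in limma). The locus (chr15:55611544-55743152) held 7 day 40-only regions and no day 60-only region. All 7 lay inside the gene, and none was listed in a later progenitor library. RSPO2, a secreted enhancer of WNT signalling, had 2.71 and 1.76 kb at day 60 against 6.75 and 7.71 kb at day 40 (log2 difference -1.55 ± 0.25, adjusted p = 0.00356), with 3 day 40-only regions. BMP5 had 0.657 and 0.852 kb at day 60 against 2.17 and 4.24 kb at day 40 (log2 difference -1.54 ± 0.33, adjusted p = 0.0339). The day 40 libraries of BMP5 differed from each other but both stood above day 60.

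LAMB1, NELL2, SLIT2, CNTNAP5 and NEB fell as well. LAMB1, the laminin beta-1 chain gene, had 2.29 and 2.96 kb at day 60 against 7.09 and 5.53 kb at day 40 (log2 difference -1.16 ± 0.24, adjusted p = 0.0339), with 5 day 40-only regions. NELL2, which encodes a secreted glycoprotein of neural tissue, had 12.48 and 7.05 kb at day 60 against 23.3 and 20.8 kb at day 40 (log2 difference -1.22 ± 0.25, adjusted p = 0.0309). SLIT2, a ligand of ROBO guidance receptors, had 15.7 and 12.3 kb at day 60 against 27.7 and 26.6 kb at day 40 (log2 difference -0.98, adjusted p = 0.0339). It held 6 day 40-only regions and 1 day 60-only region and was named after its values were seen. CNTNAP5, a contactin-associated protein gene, had 3.66 and 4.56 kb at day 60 against 9.59 and 9.07 kb at day 40. The muscle gene NEB had 0.887 and 1.51 kb at day 60 against 5.42 and 4.37 kb at day 40. CNBD1, CPXM2, GADL1, UBE3D and EPM2A completed the 12 named loci, with log2 differences between -1.88 and -1.01. Genes at the lower loci were long, with a median length of 198 kb against 47.2 kb at the higher loci and 26.6 kb over all loci tested, and the part of length in the calls was not tested. With lists of equal length CNBD1 and GADL1 had log2 differences of 0.29 and 0.32.

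**Figure D3:**
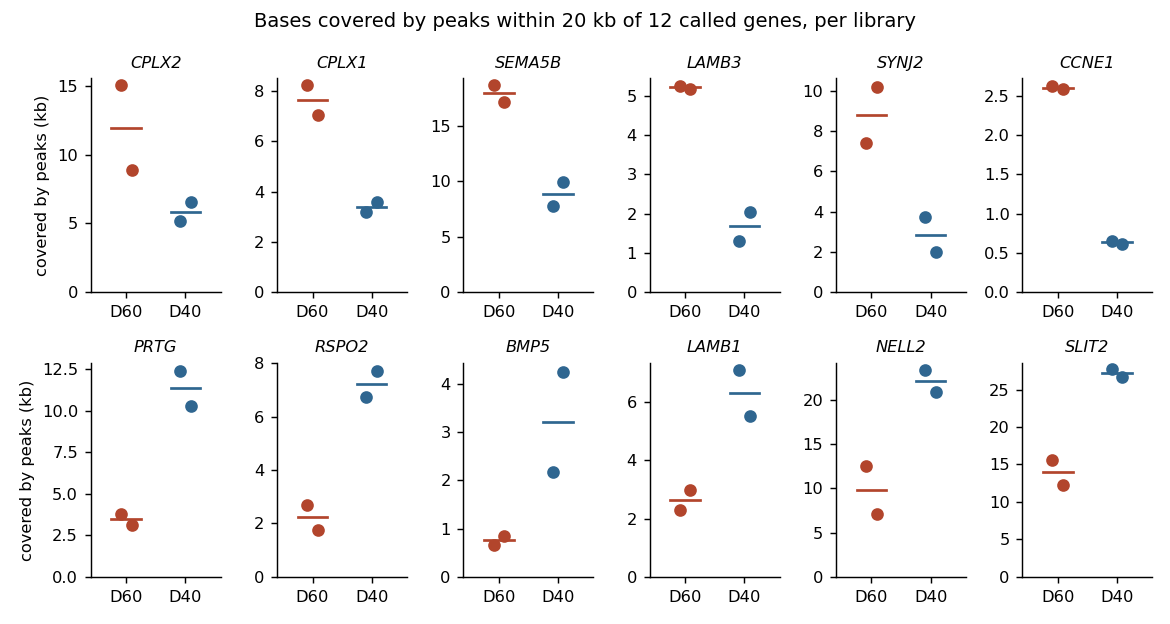
Kilobases covered by peaks within 20 kb of 12 called genes, 6 that rose (top) and 6 that fell (bottom), with day 60 (D60, red) left of day 40 (D40, blue) in each panel. Points are libraries and lines are means of 2, and in all 12 panels the groups do not overlap, as at PRTG with 3.81 and 3.14 kb at day 60 against 12.4 and 10.3 kb at day 40.

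Signals of the cortical hem mostly had log2 differences below zero, and a single member passed the test. Of 17 WNT and BMP genes of the hem, 1 fell (RSPO2), none rose and 4 had a positive log2 difference. Over all loci 0.101% fell, 0.235% rose and 9990 of 18755 had a positive difference. The median of the 17 was -0.28 against 0.02 over all loci, and it was below zero under each of the 14 alternative settings. Fitting the 4 progenitor libraries alone, the replicate block and no filter left the median unchanged, and no scaling and centring move all loci alike. The windows of these 17 genes held 8 day 60-only and 19 day 40-only regions of 198, which is 4.04% day 60-only and 9.60% day 40-only. Over all protein-coding genes, counting a region once for each window it falls in, 7.42% were day 60-only and 3.56% day 40-only. WNT2B, a WNT ligand gene, had 3.24 and 2.78 kb at day 60 against 6.59 and 5.45 kb at day 40 (adjusted p = 0.0700). WNT8B had 2.23 and 2.2 kb at day 60 against 3.96 and 4.88 kb at day 40 (adjusted p = 0.235). LMX1A, a transcription factor gene of the hem and roof plate, had 8.14 and 9.17 kb at day 60 against 14.5 and 12.8 kb at day 40 (adjusted p = 0.175), with 4 day 40-only regions. The BMP ligand gene BMP4 had 4.56 and 3.49 kb at day 60 against 4.8 and 4.82 kb at day 40. The WNT target gene AXIN2 had 10.03 and 8.21 kb at day 60 against 9.24 and 8.41 kb at day 40, with groups that overlapped. In 10 of the 17, both day 60 libraries were below both of day 40 on the scaled measure, as they were at 19.7% of all loci tested.

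Markers of choroid plexus and ciliated cells had the lowest median of the 31 lists, -0.42, although none of the 10 passed the test. Of the 10, 1 had a positive log2 difference, against 9990 of 18755 over all loci. It was FOLR1, with 0.434 and 0.721 kb at day 60 and 0 kb in both day 40 libraries. The windows of the 10 genes held 3 day 60-only (4.92%) and 8 day 40-only (13.1%) regions of 61. The largest difference was at CLIC6, a chloride channel family gene, with 0 and 0.962 kb at day 60 against 1.7 and 1.5 kb at day 40 (adjusted p = 0.448). OTX2, a transcription factor gene of early neuroectoderm and choroid plexus, had 4.90 and 2.83 kb at day 60 against 7.71 and 7.63 kb at day 40 (adjusted p = 0.235). HTR2C, a serotonin receptor gene expressed in choroid plexus, had 3.8 and 4.15 kb at day 60 against 6.84 and 6.19 kb at day 40. TTR, the transthyretin gene, had 3.55 and 3.70 kb at day 60 against 5.07 and 3.60 kb at day 40.

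Early patterning genes gave a mixed picture. Of 14, none passed, and the median was -0.07, but 0.03 with lists of equal length and 0.0076 without the first day 40 library. RAX, a homeobox gene of the early eye field and forebrain, had 2.37 and 0.976 kb at day 60 against 5.66 and 5.10 kb at day 40, a log2 difference of -1.55 ± 0.35 that just missed the threshold (adjusted p = 0.0512). FGF8, a ligand of the anterior forebrain, had 4.85 and 3.08 kb at day 60 against 3.99 and 2.32 kb at day 40. In the list of early temporal genes the largest difference was at TRIM71, a partner of the LIN28 pathway, with 5.09 and 4.37 kb at day 60 against 7.10 and 6.56 kb at day 40 (adjusted p = 0.515). The RNA-binding protein gene LIN28B had 8.11 and 7.32 kb at day 60 against 9.52 and 9.75 kb at day 40, and IGF2BP2 had 22.7 and 19.8 kb at day 60 against 18.2 and 15.5 kb at day 40. That list had a median of -0.08, and its sign turned to 0.04 without the first day 40 library and to 0.09 without the second day 60 library.

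Radial glia genes showed no call in either direction. Over all loci 9990 of 18755 had a positive log2 difference. Of the 20 radial glia genes 15 did, with a median of 0.11, and the outer radial glia list had 8 of 10 and a median of 0.19. Both medians were above zero under every alternative setting, though some of these settings leave the medians unchanged and others move all loci alike. The outer radial glia windows held 24 day 60-only and 3 day 40-only regions of 137, which is 17.5% day 60-only and 2.19% day 40-only, the highest day 60-only share of the 31 lists. PTN had 11.7 and 8.68 kb at day 60 against 7.17 and 6.86 kb at day 40 (adjusted p = 0.653), with 4 day 60-only regions. TNC, a matrix glycoprotein gene, had 7.52 and 6.19 kb at day 60 against 4.79 and 4.78 kb at day 40, with 4 day 60-only regions and 1 day 40-only region. PTPRZ1, a receptor phosphatase gene that marks outer radial glia, had 17.7 and 11.9 kb at day 60 against 14.6 and 13.9 kb at day 40, with 6 day 60-only regions and a log2 difference of -0.01. HOPX, another marker, had 6.71 and 6.95 kb at day 60 against 5.56 and 6.13 kb at day 40 and no region of either kind. In the general list, ASPM, a mitotic spindle gene of dividing progenitors, had the largest difference. It had 2.67 and 2.67 kb at day 60 against 4.54 and 4.43 kb at day 40, a log2 difference of -0.69 (adjusted p = 0.360), with both day 60 libraries below both of day 40. NOTCH1 had 16.5 and 12.4 kb at day 60 against 8.73 and 9.16 kb at day 40 (adjusted p = 0.247). SLC1A3, a glutamate transporter gene of radial glia and astrocytes, had 13.7 and 10.1 kb at day 60 against 7.74 and 7.80 kb at day 40. PAX6 had 18.0 and 15.0 kb at day 60 against 17.7 and 14.6 kb at day 40.

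Late temporal and gliogenic factors also had small differences. Of 10 genes, 9 were positive and none passed, with a median of 0.12, where 9990 of 18755 were positive over all loci. The largest was NFIX, a nuclear factor I gene that acts in the switch to glia, with 26.8 and 22.6 kb at day 60 against 15.5 and 17.3 kb at day 40, a log2 difference of 0.54 (adjusted p = 0.230) and 4 day 60-only regions. Its relatives NFIA and NFIB had 51.3 and 41.4 kb at day 60 against 43.9 and 41.9 kb at day 40, and 57.0 and 50.9 kb at day 60 against 45.9 and 51.1 kb at day 40. Among 11 astroglia genes none passed. AGT, the angiotensinogen gene, had 4.84 and 4.12 kb at day 60 against 0.688 and 2.91 kb at day 40 (log2 difference 1.27, adjusted p = 0.0886).

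Among the neuronal lists, that of synaptic vesicles held calls. Of its 14 genes of vesicles and their release, 2 rose, CPLX1 and CPLX2, and none fell. Over all loci 0.235% rose and 0.101% fell. The median of the vesicle list was 0.09, but -0.01 with lists of equal length. Among 16 pan-neuronal genes none passed. MYT1L, a neuronal zinc finger factor gene, had 31.9 and 24.0 kb at day 60 against 15.9 and 17.1 kb at day 40 (log2 difference 0.69, adjusted p = 0.0604). NEUROD2 had 7.43 and 5.29 kb at day 60 against 2.93 and 3.73 kb at day 40 (adjusted p = 0.247). Of 10 deep-layer neuron genes, 2 were positive and none passed, with a median of -0.33, where 9990 of 18755 were positive over all loci. FOXP2, a transcription factor gene of deep-layer neurons, had 23.4 and 18.3 kb at day 60 against 26.9 and 30.4 kb at day 40 (adjusted p = 0.280), with 4 day 40-only regions and no day 60-only region. TBR1, a master factor of deep-layer identity, had 6 and 3.22 kb at day 60 against 5.31 and 6.25 kb at day 40, and in the deep-layer list CRYM, a thyroid hormone binding protein gene, had the largest difference, -0.55 (adjusted p = 0.777). In the cell cycle list, 1 of 14 rose, CCNE1, and the median was 0.06, but -0.04 with 5 kb flanks. In the list of adhesion and matrix genes of the niche, 1 of 14 fell, LAMB1, and COL4A5, a collagen gene, had 3.12 and 2.91 kb at day 60 against 6.55 and 6.39 kb at day 40 (adjusted p = 0.130).

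**Figure D4:**
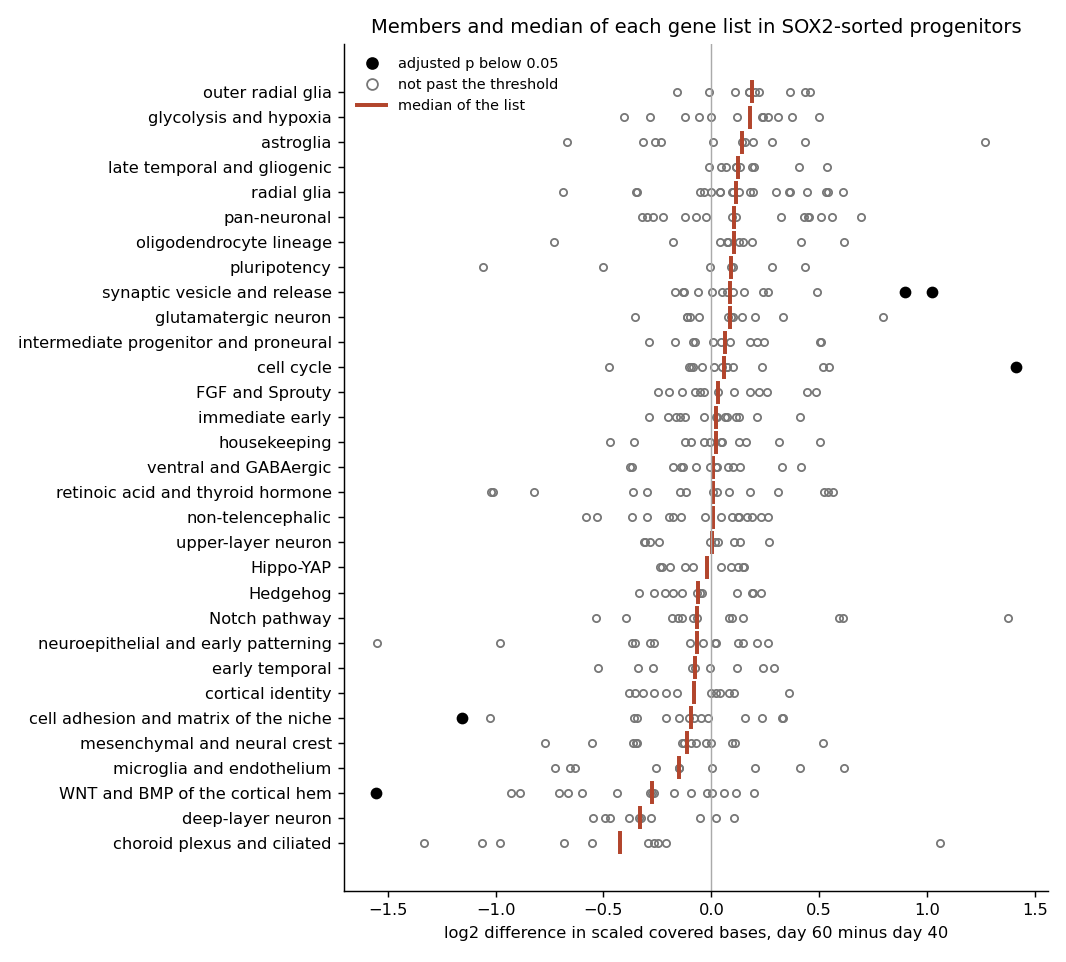
Log2 difference in scaled covered bases, day 60 minus day 40, of each member (circles) of 31 gene lists, ordered by the list median (red bars). Filled circles passed adjusted p of 0.05 in limma. The choroid plexus list is lowest with a median of -0.42 and the outer radial glia list highest with 0.19, and most members lie near zero.

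The other lists held no called member, and their medians lay between -0.15 and 0.18. The single largest differences in signalling lists were at JAG2, a Notch ligand gene, with 3.82 and 2.26 kb at day 60 against 0.782 and 0.812 kb at day 40 (adjusted p = 0.0634), and at CRABP1, a retinoic acid binding protein gene, with 2.88 and 1.35 kb at day 60 against 4.08 and 4.85 kb at day 40 (adjusted p = 0.155). The largest in the FGF, Hippo-YAP and Hedgehog lists were ETV4, TEAD3 and GAS1, with log2 differences of 0.48, -0.24 and -0.34. Among proneural genes ELAVL4, which encodes a neuronal RNA-binding protein, had 10.6 and 7.76 kb at day 60 against 6.01 and 6.14 kb at day 40 (adjusted p = 0.278), and the 12 genes of that list held 9 day 60-only regions (11.4%) and no day 40-only region of 79. Over all protein-coding genes these shares were 7.42% and 3.56%. Of 10 oligodendrocyte lineage genes, 8 had a positive log2 difference, against 9990 of 18755 over all loci. None of the 10 passed, and their median was 0.10. The largest difference in that list went the other way, at NKX2-2, which had 2.40 and 2.45 kb at day 60 against 3.75 and 4.76 kb at day 40 (adjusted p = 0.393).

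No marker of the sort or of another cell type was called between the days. SOX2 had 13.3 and 9.78 kb at day 60 against 15.9 and 12.9 kb at day 40, a log2 difference of -0.35 (adjusted p = 0.819). On the scaled measure both day 60 libraries lay below both of day 40. SYN1 and PPP1R12C, the gene that holds AAVS1, had differences of 0.10 and 0.03. The 8 progenitor markers summed to 82.4 and 64.9 kb at day 60 and 72.5 and 65.7 kb at day 40, against 31.6 to 52.6 kb in the 4 neuron libraries of these days. Gene ends of 6 of the 8 carried a peak in each of the 4 progenitor libraries. The 8 neuron markers summed to 118 and 95.0 kb at day 60 and 92.7 and 96.5 kb at day 40, and none was called. Choroid plexus markers summed to 4.68 and 5.07 kb at day 60 and 8.10 and 6.26 kb at day 40, and those of microglia to 5.83 and 4.55 kb at day 60 and 8.22 and 6.64 kb at day 40. Both of these sums were lower in each day 60 library than in either of day 40, while the progenitor and neuron sums overlapped. The sum of the 2 pluripotency markers went the other way, with 2.26 and 2.40 kb at day 60 against 1.32 and 1.86 kb at day 40. Gene ends did not follow the microglia sum. Of its 3 markers, 1 was open at an end in either day 60 library and 0 in either day 40 library. For choroid plexus these counts were 2 and 3 at day 60 against 3 and 3 at day 40. No marker was at 0 in all 4 libraries, and the part of other cell types in the results was not tested.

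The same interval in neurons gave more calls. Between day 60 and day 40 neurons, 880 loci were higher (4.69%) and 272 lower (1.45%), and the median difference over all loci was 0.32. The day 60 neuron lists covered 83.4 and 54.8 Mb, against 104 and 97.9 Mb for the day 40 neuron lists, and the part of this gap in the calls was not tested. The test of the difference itself, the change in progenitors minus that in neurons, had a median of -0.27. It passed at 29 loci (0.155%) with a more positive change in progenitors and at 43 (0.229%) with a more negative one. Centred on the median gene, these counts were 66 and 16, so the split depends on the scaling. PRTG and RSPO2, the first named of the progenitor falls, were also called lower in day 60 neurons. PRTG had a log2 difference of -0.82 in neurons (adjusted p = 0.0465) and -1.61 in progenitors, and the difference of the changes was -0.79 (adjusted p = 0.274). RSPO2 had a log2 difference of -0.83 in neurons (adjusted p = 0.0458), and the difference of the changes was -0.73 (adjusted p = 0.307). SLIT2 was likewise called lower in neurons (log2 difference -0.78, adjusted p = 0.0296). CPLX2, with 0.55 (adjusted p = 0.330), did not pass the test of the difference either. LAMB3 did, with a difference of 1.5 ± 0.34 (adjusted p = 0.0470), and so did NEB, with -2.54 ± 0.50 (adjusted p = 0.0206). Of 13 alternative settings LAMB3 passed in 5 and NEB in 6. Without scaling neither passed (adjusted p = 0.147 and 0.277).

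Across all stages the loci followed several courses, given here as covered bases per Mb of each list. In progenitors PRTG had 159 and 124 on day 40, then 43.7 and 40.4 on day 60, 41.2 and 32.0 on day 90, and 35.4 and 24.5 on day 120. It thus stood low in all 6 libraries after day 40. For BMP5 the values were 27.8 and 51.2 on day 40, then 7.53 and 11.0 on day 60, 21.1 and 37.7 on day 90, and 58.0 and 43.6 on day 120. LAMB1 likewise had 91.1 and 66.8, 26.2 and 38.2, 77.7 and 69.7, and 127 and 88.8 on these days. At both loci day 60 was the low point and the mean at day 120 lay above the mean at day 40. SEMA5B had 99.7 and 120 on day 40, then 215 and 221 on day 60, 219 and 208 on day 90, and 222 and 262 on day 120, so that it stayed high. LAMB3 had 16.7 and 24.8 at day 40 and 60.1 and 66.7 at day 60, and lay between 66.2 and 102 later.

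**Figure D5:**
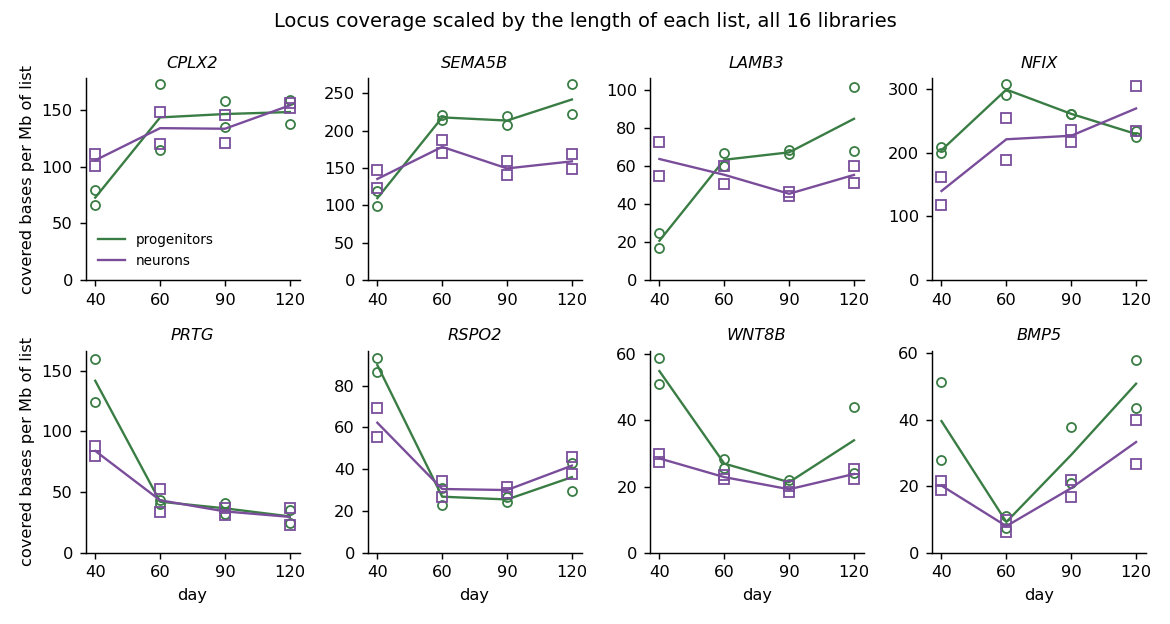
Covered bases in the locus per Mb of the whole list on days 40, 60, 90 and 120, in progenitors (green circles) and neurons (purple squares), with lines through the means of 2 libraries. The 8 genes were chosen after their values were seen, and NFIX and WNT8B were not called. PRTG stands at 159 and 124 in day 40 progenitors and at 43.7 or less in all later progenitor libraries.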

How the data were processed

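ATAC-seq peak lists of 16 libraries were deposited, 2 for each of 4 days in progenitors and neurons. The submitters' processing notes name Trim Galore 0.5.0, BWA 0.7.17, Picard, SAMtools 1.9, MACS2 2.1.2 and hg38, with no settings given in the sources read here. The labels' protocols give a Tn5 reaction and dual-index Nextera libraries. Each deposited list was called on 1 library, so differences in depth between libraries enter as differences in the peaks called, and depth is unknown. The deposited columns hold a score, a fold enrichment, a −log10 p-value and a −log10 q-value per peak. These are the authors' own values and served only to rank or filter peaks within a list.

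Peaks outside chromosomes 1 to 22 and X were left out, 95 to 245 in each progenitor list of days 60 and 40. The 4 lists were merged, and a region counted as present in a library with an overlap of at least 1 base. Gene positions came from RefSeq, and promoters (250 bases before to 50 after the start) from its GRCh38.p14 table, with a start and strand for 15812 genes. Locus coverage was tested for 18755 of 19974 protein-coding genes, those with at least 500 bases in at least 2 of the 16 libraries, on the log2 scale with a pseudocount of 500 bases. The test was limma 3.58.1 (R 4.3.3) with a trend on mean coverage and 8 group means, two-sided, with Benjamini-Hochberg adjustment over all loci and a threshold of 0.05. Adding a pseudocount understates the change of loci with little coverage. Scripts were tested on simulated data, in Python 3.11.15.

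Members and gene lists were chosen with earlier results of these data known. The 387 entries of 31 lists all matched a gene, 3 of them through an older symbol. Named loci were the 12 with the largest difference in each direction among those called with a mean of at least 3 kb in one group, up to 4 called members of each list, and the member with the largest absolute difference where none was called. Other loci were named after their values were seen. Alternatives changed the pseudocount, flank, filter, scaling, list length, peak threshold, region overlap, samples fitted and replicate block, and left out each library in turn. Lists of equal length held 77.6 Mb each for regions and gene ends, and 36.9 Mb each for loci. Leaving out libraries for the share of regions open at day 90 was added after seeing the data.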

Additional observations from a re-analysis of the deposited data

Results flagged for a closer look

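The change between day 60 and day 40 was set against the same change in neurons by the interaction term of the limma fit over 18755 loci. It passed adjusted p of 0.05 at 29 loci with a more positive change in progenitors and at 43 with a more negative one. LAMB3 had 5.24 and 5.18 kb in day 60 progenitors against 1.3 and 2.05 kb in day 40 progenitors, and 4.23 and 3.31 kb in day 60 neurons against 5.73 and 7.10 kb in day 40 neurons. The difference of the changes was 1.5 on the log2 scale (limma, adjusted p = 0.0470). NEB, the muscle nebulin gene, had 0.887 and 1.51 kb in day 60 progenitors against 5.42 and 4.37 kb in day 40 progenitors, and 5.21 and 3.82 kb in day 60 neurons against 5.43 and 2.47 kb in day 40 neurons. Its difference of the changes was -2.54 (limma, adjusted p = 0.0206).

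Listed genes whose change passed this test were NFIA and ITGAV, and at both of them coverage rose in neurons (limma, adjusted p = 0.000637 at NFIA and 0.00358 at ITGAV). NFIA, a nuclear factor I gene, had 51.3 and 41.4 kb in day 60 progenitors against 43.9 and 41.9 kb in day 40 progenitors, and 42.7 and 22.6 kb in day 60 neurons against 23.8 and 21.4 kb in day 40 neurons. Its difference of the changes was -0.97 (limma, adjusted p = 0.0422). ITGAV, an integrin gene, had 9.14 and 7.58 kb in day 60 progenitors against 9.10 and 8.99 kb in day 40 progenitors, and 9.16 and 7.38 kb in day 60 neurons against 6.71 and 5.63 kb in day 40 neurons. Its difference of the changes was -1.12 (limma, adjusted p = 0.0462).

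These calls depend on the settings. Of 13 alternative settings, NEB passed in 6, LAMB3 and NFIA in 5 and ITGAV in 4. Without scaling none of them passed, with adjusted p of 0.147 at LAMB3, 0.277 at NEB, 0.860 at NFIA and 0.650 at ITGAV. Centred on the median gene, LAMB3 passed (adjusted p = 0.0249) and the other loci did not. With any 1 of the 4 progenitor libraries left out, none passed, except NEB without the second day 60 library (adjusted p = 0.0359).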

How the results depend on the processing

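Region counts kept within 1.5 times of 13597 and 9156 with stricter peaks, a 50% overlap, lists of equal length and wider merging. Leaving out a library, which asks for fewer libraries, gave 16858 to 40613 day 60-only and 12548 to 20906 day 40-only regions, and 390 to 734 and 280 to 299 gene ends. Windows of 200 bases gave 137 day 60-only and 164 day 40-only gene ends. The share of day 60-only regions open in both day 90 progenitor libraries was 77.9% with stricter peaks, 70.8% with a 50% overlap, 81.5% with equal lengths and 32.8% to 73.9% without a library. For day 40-only regions it was 10.1% with a 50% overlap, 12.3% with equal lengths and 6.05% to 20.3% without a library. The difference in covered length ran from -2.73 to 6.92 Mb, and was -2.73 Mb without the first day 60 library and -0.40 Mb without the first day 40 library.

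Higher and lower loci numbered 25 and 7 with a pseudocount of 100 bases, 24 and 29 with 2000 bases, 12 and 7 when centred, 1 and 1 without scaling, 199 and 123 with equal lengths, and 0 and 0 on 4 libraries, where 2775 had an unadjusted p under 0.05. Lower loci numbered 30 with 5 kb flanks. Without a library they were 1 to 11 and 0 to 7. The interaction gave 66 and 16 loci when centred, 163 and 143 with equal lengths, 0 and 0 without scaling, 73 more positive with stricter peaks, 25 more negative with 100 bases, and 1 to 11 and 0 to 12 without a library. The replicate block gave 46 and 27 loci, with 43 and 19 of the 44 and 19 among them, and 33 and 50 in the interaction. The 2 pairs share only a number, and their deviations correlated at 0.0377.

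Directions turned at PROM2 with 5 kb flanks (-0.28), and with equal lengths at CNBD1 (0.29), GADL1 (0.32), CCNE1 (-0.85), AGT (-0.29), TBR1 (0.30), ETV4 (-0.51), TEAD3 (0.28), INHBA (0.13), NEUROD2 (-0.022), GBX2 (0.92), COL1A2 (0.093), CRIPTO (0.76) and SYN1 (-0.16). With stricter peaks they turned at INHBA (0.046), SYN1 (-0.047) and PPP1R12C (-0.075). PPP1R12C also turned when centred (-0.011). Without a library PPP1R12C ran from -0.18 to 0.24, TEAD3 from -0.62 to 0.15 and SYN1 from -0.11 to 0.31. The cause of these moves was not tested. Depth is unknown, so a missing peak may be a region that was not detectable.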
